A study of Mus musculus with 2 samples.

Results

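The genes described here are 50 mouse genes that already gave a clear signal in untreated small-intestinal organoids and gave at least 5 times that signal in organoids cultured with RankL. They were chosen on net signal, the median brightness of a spot minus that of its local background. A gene entered if 1 of its probes had a net untreated signal of at least 50 intensity units and a RankL over untreated ratio of at least 5 on both arrays. Of 9058 named genes with a probe at 50 or more on both arrays, 83 met these thresholds (0.916%), and 0.861% met them in the other direction. Counted by probe, 94 of 13591 met them (0.692%). From the 83, 33 genes were left out by name: chemokines, annexins, Serpinb genes, NF-kB genes, known M cell genes and others. The remaining 50 are the subject here, of 18350 named genes on the array. Because these same signals chose the genes, their ratios are a description, no test was made on them, and their direction carries no information of its own.

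RankL-treated organoids of wild-type mice were compared with untreated organoids of wild-type mice, both grown from intestinal crypts in medium with EGF, Noggin and R-spondin. Cultures received between 50 and 200 ng/ml of recombinant RankL, the medium being renewed on days 2 and 5. The sources used here do not give the exact dose, the harvest time, or the strain and age of the mice. The data were 2 dual-colour arrays of 1 RNA pair, the dyes swapped between them and RankL RNA carrying Cy3 on array 1, so there was 1 replicate per condition and no p-value can be given. Each ± below is an SD over these 2 arrays and measures labelling and hybridisation only, not how cultures vary. Organoid RNA is a bulk sample, in which more cells of a type and more RNA per cell cannot be told apart.

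RankL is a TNF family cytokine. Its receptor RANK signals through the canonical NF-kB pathway and, by way of the kinase Map3k14, through the alternative pathway that processes Nfkb2. In the epithelium over Peyer's patches this signal drives the formation of M cells, which have few microvilli and carry particles from the lumen to immune cells beneath, and which need the Ets factor Spib.

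On the array, all 50 genes were well above background in RankL RNA and in untreated RNA on both arrays, so their ratios are measured and not bounds. None of their spots was saturated or marked as an outlier. Net untreated signals ran from 50.5 to 2242 and net RankL signals from 335 to 13494. The plain net ratio, averaged over arrays, had a median of 7.45. It lay at 10 or more for 15 genes and under 10 for 35. Array 2 gave the higher net ratio for 33 genes and array 1 for 17, and the largest disagreement between arrays was 1.83-fold. Over all probes at 50 or more untreated, the median net ratio was 0.858 on array 1 and 0.92 on array 2 (signals not dye-normalized).

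After background correction and normalization within each array, the 50 genes had log2 ratios from 1.83 to 4.29 with a median of 2.69 (array 1 alone 2.66, array 2 alone 2.64). All 50 met a size rule of at least 2-fold on average and at least 0.5 on the log2 scale on each array. This largely follows from their choice on the same spots. Of 10399 measured named genes, 6.0% met the rule upwards and 2.85% downwards. For genes of the same kind that were left out by name the median was 3.84, and over 9054 measured genes at 50 or more untreated it was -0.019. The median SD between arrays over the 50 genes was 0.0996, and the largest 0.41. The correction adds a constant before logs are taken, so dim genes read lower than by their net ratio, and the scanner software's own ratios gave a median of 3.18.

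**Figure D1:**
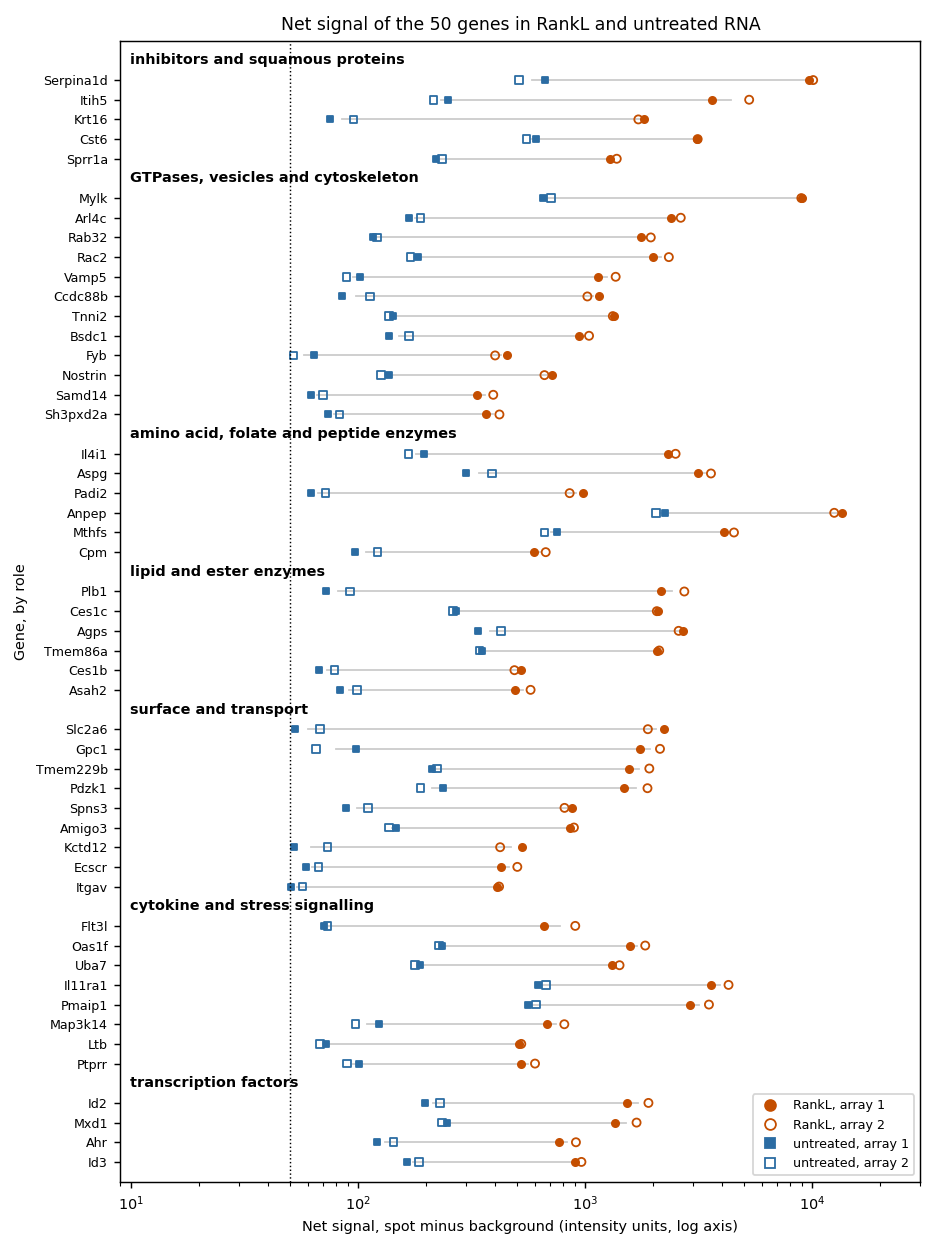
Net signal (log axis, intensity units) of each of the 50 genes in RankL RNA (orange circles) and untreated RNA (blue squares) on array 1 (filled) and array 2 (open), by role; grey lines join the geometric means and the dotted line marks 50. For every gene both RankL points lie right of both untreated points, as the choice of genes requires, and brightness is comparable within a gene only.

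**Figure D2:**
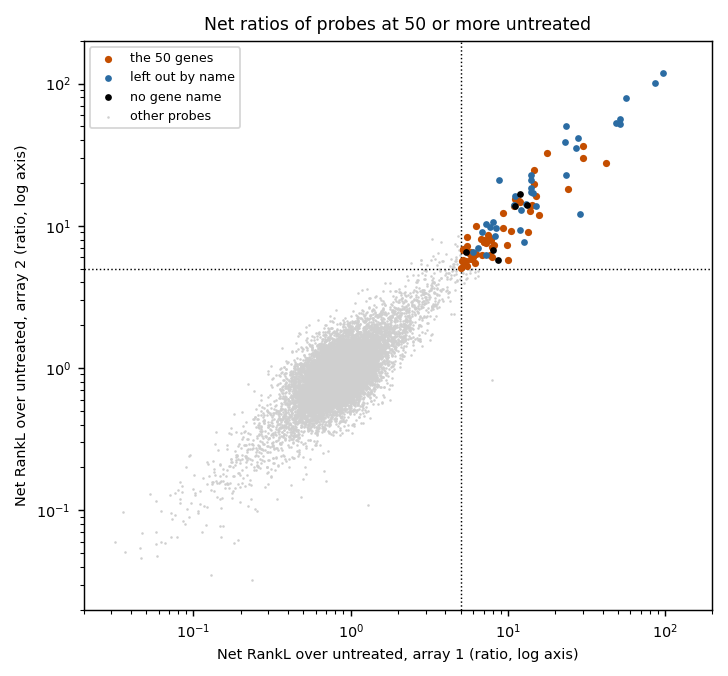
Net RankL over untreated ratio on array 1 against array 2 (log axes) for probes with at least 50 untreated, with dotted lines at 5. Probes of the 50 genes (orange) reach a mean ratio of 34.2, below the 107-fold of the highest gene left out by name (blue).

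Receptors, transporters and other surface proteins made up 9 of the 50. Slc2a6, a member of the GLUT family of sugar transporters, had net signals of 2231 and 1892 in RankL RNA on arrays 1 and 2, against 53 and 68 in untreated RNA. Its log2 ratio was 4.29 ± 0.35. Array 1 read a net ratio of 42.1 and array 2 one of 27.8, where the choice of genes required at least 5. Gpc1, a glypican that carries heparan sulfate chains on the cell surface, was at 1748.5 and 2139.5 with RankL, against 98 and 65.5 untreated, a log2 ratio of 3.98 ± 0.37. Here array 2 was the higher, at a net ratio of 32.7 against 17.8 on array 1.

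The other surface genes had smaller ratios. Pdzk1, a scaffold that anchors transporters in the brush border, was at 2.82 ± 0.32, and Spns3, of the spinster transporter family, at 2.64 ± 0.28. Amigo3, a leucine-rich repeat adhesion protein, was at 2.35 ± 0.015 and Tmem229b at 2.84 ± 0.051. Kctd12, an auxiliary subunit of GABA-B receptors, read 2.54 on array 1 and 1.95 on array 2, the widest spread of all 50. Itgav, the integrin alpha v chain, was at 2.19 ± 0.070 from untreated signals of 50.5 and 57, the closest of all to the floor of 50. Ecscr, a surface protein known from endothelial cells, was at 2.22 ± 0.047.

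A group of 12 genes encodes small GTPases, vesicle proteins and parts or regulators of the cytoskeleton, with log2 ratios from 1.83 to 3.80. Mylk, the myosin light chain kinase that drives contraction and, in gut epithelium, loosens tight junctions, had RankL signals of 9044.5 and 8969.5, against 656 and 707.5 untreated. That gave 3.80 ± 0.26, and its second probe read 3.77. Rac2, a small GTPase best known from blood cells, where it acts on actin and the NADPH oxidase, was at 2003 and 2340.5 with RankL, against 183 and 170.5 untreated. Its log2 ratio was 3.38 ± 0.11 by this probe, the brighter of its probes in untreated RNA and the dimmer in RankL RNA. The second Rac2 probe had 2325 and 3036 with RankL, against 77 and 84 untreated, and a ratio of 4.43. The probes therefore differ by about 1 in the size of the log2 ratio while both met the thresholds.

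Vesicle traffic was represented by several families. Rab32, a Rab GTPase of transport to lysosome-related organelles, had 1767.5 and 1949 net units with RankL, against 117 and 121 untreated. The arrays read almost the same value for it, 3.57 ± 0.0085. Arl4c, an Arf-like GTPase of membrane and actin dynamics, was at 2400.5 and 2641 with RankL, against 167.5 and 188.5 untreated, a log2 ratio of 3.59 ± 0.099. Vamp5, a membrane-fusion (SNARE) protein, was at 1137.5 and 1365 with RankL, against 102.5 and 89 untreated, or 3.22 ± 0.20. Ccdc88b, a coiled-coil protein known from T cells, was at 1149.5 and 1024.5 with RankL, against 85 and 113 untreated. Its log2 ratio was 2.99 ± 0.36. In each of these genes the lower RankL value was several times the higher untreated one, which largely follows from their choice.

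The rest of this group lay between 1.83 and 2.94. Tnni2, troponin I of fast skeletal muscle, was at 2.94 ± 0.063 and Bsdc1 at 2.44 ± 0.13. Fyb, an adaptor of T cell receptor and integrin signalling, was at 2.18 ± 0.037. Nostrin, which binds endothelial nitric oxide synthase, was at 2.10 ± 0.086 and Samd14 at 1.87 ± 0.048. Sh3pxd2a, a scaffold of podosomes, had the lowest ratio of the 50 at 1.83 ± 0.0077.

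Rac2, Fyb, Ccdc88b, Nostrin, Ecscr and Mylk are best known from leukocytes, endothelium or smooth muscle, so markers of those cells were read in the same RNAs. Of 11 immune markers with a probe, including Ptprc, Cd3e, Itgam, Adgre1 and Csf1r, 0 were measured. Their net signals, Cd3e included, summed to 240.6 and 206.85 in RankL RNA, against 284.15 and 254.65 in untreated RNA. Cd3e alone was well above background, at 51.5 and 49.5 with RankL against 118.5 and 65 untreated. It had an outlier spot on array 1 and so gave no mean ratio. Cd3e had the largest untreated signal of these markers on both arrays, and the order of the sums on array 1 depends on its outlier spot. Whether traces of such cells had a part in any ratio was not tested. Of 4 endothelial markers (Pecam1, Cdh5, Kdr and Tek) 0 were measured, with sums of 55.95 and 24.7 in RankL RNA, against 27.75 and 41.15 in untreated RNA. Of 8 mesenchymal markers, 4 were measured and 0 met the size rule, with sums of 1973.25 and 2176.1 in RankL RNA, against 1497.7 and 1515.1 in untreated RNA. Among them Acta2, the smooth muscle actin, read 1606 and 1841.5 with RankL, against 1224.5 and 1243.5 untreated, a log2 ratio of 0.62 ± 0.036, while Des was not above background. Pdgfrb, dim in untreated RNA, read 87.5 and 113 with RankL, against 30.5 and 29 untreated, a log2 ratio of 0.90 ± 0.23. Col1a2 was at 0.17 ± 0.17 and Vim at -0.067 ± 0.0077. All 10 epithelial markers were measured, and 1 of them, Krt20, was higher.

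Enzymes of lipids and esters made up 6 of the 50. Plb1, a phospholipase of the brush border, had 2153 and 2738 net units with RankL, against 72 and 92 untreated. Its log2 ratio was 4.29 ± 0.026, which differed from that of Slc2a6 by less than the spread between arrays. The arrays gave net ratios of 29.9 and 29.8. A second Plb1 probe was not above background in either RNA, at 22 and 7.5 with RankL, against 15 and 18.5 untreated. Agps, which makes the ether bond of plasmalogens in the peroxisome, was at 2696 and 2585 with RankL, against 338 and 427 untreated. It read 2.77 ± 0.38, and its dimmer second probe 1.65. Tmem86a, which hydrolyses lysoplasmalogens, was at 2070 and 2122.5 with RankL, against 350.5 and 343 untreated, or 2.55 ± 0.082. Asah2, the neutral ceramidase of the brush border, was at 492.5 and 576 with RankL, against 83.5 and 99 untreated, or 2.10 ± 0.013. A second Asah2 probe read 1.95, and the third, at 62 and 53 with RankL, was not above background untreated. The carboxylesterases Ces1c and Ces1b were at 2.86 ± 0.11 and 2.22 ± 0.20.

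Among 6 enzymes of amino acids, folate and peptides, Il4i1, a secreted L-amino acid oxidase, had 2320 and 2506 net units with RankL, against 196 and 167 untreated, a log2 ratio of 3.51 ± 0.096. Padi2, which turns arginine in proteins into citrulline, was at 982 and 856 with RankL, against 62 and 72 untreated, or 3.09 ± 0.26. Aspg, an asparaginase, was at 3160 and 3587.5 with RankL, against 300 and 389 untreated, or 3.24 ± 0.23. For Aspg the choice of probe mattered, since a second and dimmer probe, at 185.5 and 125 with RankL against 47.5 and 45 untreated, read 1.29 on array 1 and 0.91 on array 2. Mthfs, a folate enzyme, was at 4085 and 4530.5 with RankL, against 753 and 662.5 untreated, or 2.68 ± 0.060.

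Anpep, the aminopeptidase N of enterocyte microvilli, had 13494 and 12522 net units with RankL, against 2242 and 2061 untreated, a log2 ratio of 2.81 ± 0.23. Cpm, the membrane-bound carboxypeptidase M, was at 2.16 ± 0.10. Its signals were close between arrays in both RNAs.

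Protease inhibitors and proteins of squamous epithelium, 5 genes in all, had the highest median of the groups, 3.80. Serpina1d, an alpha-1-antitrypsin, was at 9721 and 10113.5 with RankL, against 665 and 511 untreated, or 4.15 ± 0.10. Its near-identical copies may bind the same probe, so the value is uncertain for the single gene. Itih5, a heavy chain of the inter-alpha-trypsin inhibitor family, was at 3640.5 and 5285 with RankL, against 249 and 215.5 untreated, or 4.09 ± 0.37. Krt16, a keratin of stressed epidermis, was at 1811.5 and 1718 with RankL, against 75.5 and 95.5 untreated, or 3.80 ± 0.26. RankL values of these 3 genes exceeded their untreated values by more than 10-fold on both arrays, where their choice required at least 5-fold. Cst6, a cystatin that inhibits cysteine proteases, was at 3109 and 3135 with RankL, against 611 and 553.5 untreated, or 2.47 ± 0.052. Sprr1a, a protein of the cornified envelope, was at 2.41 ± 0.087.

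Genes of cytokine and stress signalling numbered 8, with log2 ratios from 2.14 to 2.80. Il11ra1, the alpha chain of the interleukin-11 receptor, was at 3587 and 4287 with RankL, against 621 and 675.5 untreated, or 2.66 ± 0.055, and its second probe read 2.39. The mouse genome holds a near-identical copy of this gene that the probes may also bind. Flt3l, the growth factor of dendritic cells, was at 662.5 and 906 with RankL, against 71 and 73.5 untreated, or 2.80 ± 0.23. Its second probe was dim, at 93 and 78.5 against 31 and 38, and read 0.69, below the size rule, with untreated RNA above background on 1 array only. Ltb, lymphotoxin beta, a membrane-bound TNF family ligand, was at 2.28 ± 0.012. Pmaip1, a pro-apoptotic BH3-only protein, was at 2900 and 3514.5 with RankL, against 560 and 610.5 untreated, or 2.49 ± 0.035.

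Uba7, which activates a ubiquitin-like modifier of the interferon response, was at 2.70 ± 0.012, and Oas1f, of the oligoadenylate synthetase family, at 2.74 ± 0.073. Ptprr, a tyrosine phosphatase that acts on MAP kinases, was at 525 and 602.5 with RankL, against 101 and 89.5 untreated, or 2.14 ± 0.15. A second Ptprr probe, at 77 and 104 with RankL, was not above background untreated. Map3k14, the NF-kB inducing kinase of the alternative pathway, was at 2.38 ± 0.26. In a list of 25 genes of RANK signalling, chosen with earlier results known, it is the only 1 of the 50. Nfkb2 (2.75) and Nfkbia (2.87) met the thresholds too and were left out by name, and no other list gene met them. Of 20 list genes measured, 11 were higher and 0 lower by the size rule, against 6.0% and 2.85% of all measured named genes. Among the 11, 2 (Traf1 and Tnfrsf11b) were dim in untreated RNA and counted as measured through RankL RNA alone. Map3k14, Nfkb2 and Nfkbia, also among the 11, met the thresholds on these same signals, so the count is a description. The 20 had a median of 1.15. Relb at 1.82 and Birc3 at 1.55 were higher, while the kinases Chuk (0.18) and Ikbkb (0.27) and the adaptor Traf3 (0.82) did not meet the size rule.

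Transcription factors were 4 in number, and each is known to act by pairing with another protein. Id2 and Id3, which bind basic helix-loop-helix factors and keep them off DNA, were at 2.83 ± 0.0081 and 2.21 ± 0.12, and a second Id2 probe read 2.58. Ahr, the ligand-activated aryl hydrocarbon receptor, was at 2.35 ± 0.013. Its probe was printed 10 times on each array, which shows the error of single spots. The 10 spots ran from 591 to 1005.5 with RankL, against 98 to 161 untreated, on array 1, and from 686 to 1052.5 with RankL, against 107 to 181 untreated, on array 2. No RankL spot came near an untreated one, but the means of these spots chose the gene, and the spots repeat 1 RNA pair. Mxd1, a partner of Max that opposes Myc, was at 1353 and 1687 with RankL, against 247 and 234.5 untreated, or 2.52 ± 0.15. A second and dimmer Mxd1 probe, at 80 and 87 against 43 and 50, read 0.49, so the gene's ratio rests on the brighter probe.

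In all, 31 of the 50 genes had a single named probe, and 11 had another measured probe. In Arl4c, Ces1c, Cst6, Fyb, Itgav, Plb1, Sh3pxd2a and Vamp5 the other probe was well above background on both arrays in neither RNA. In 4 genes (Id2, Il11ra1, Mylk and Rac2) a second probe met the thresholds too. In 7 (Agps, Asah2, Aspg, Flt3l, Mxd1, Ptprr and Rac2) measured probes differed by more than 1 on the log2 scale. Probes of 1 gene can target different transcript ends or forms, and which is the case here was not tested.

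At the edge of the ratio threshold, the genes just inside were Sh3pxd2a (net ratios 5.00 and 5.06 on arrays 1 and 2), Cst6 (5.09 and 5.66), Pmaip1 (5.18 and 5.76) and Id3 (5.50 and 5.19). Just outside were Tuba1a (4.99 and 6.21), Gdpd5 (5.73 and 4.92), Nceh1 (4.90 and 6.76) and Abhd2 (6.45 and 4.80). Each of these missed on 1 array only. At the edge of the untreated floor, Kcnk6, Gja4, Socs1 and Pmp22 missed it by at most 2 units on 1 array while their ratios were above 5 on both, up to 51.7 for Pmp22 on array 1.

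Relatives of the 50 genes were read next, to see how far each ratio was shared by its family. The families were grouped by symbol after the members were known. For 24 of the 50 genes, in 22 families, 126 other members were measured, of which 14 were higher (11.1%), 3 lower (2.38%) and 109 neither by the size rule. Their median log2 ratio was 0.093. Over all measured named genes 6.0% were higher and 2.85% lower. No test was made of these shares.

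Within the Rac family, Rac1, the widely expressed member, was at 0.12 ± 0.29 and Rac3 at -0.53 ± 0.34, against 3.38 for Rac2. Next to Arl4c at 3.59, Arl4a was at -0.048 ± 0.13 and Arl4d at -0.73 ± 0.23. Sprr1a at 2.41 stood beside 5 measured Sprr2 genes between -0.34 and -0.081, among them Sprr2a1 at -0.23 ± 0.14. Of 10 other measured Kctd genes 0 met the rule in either direction. Of 40 other Rab genes measured, 3 were higher (Rab15, Rab31 and Rab42, the last dim in untreated RNA) and 37 neither. The gap between a raised gene and its relatives follows at least in part from the choice of genes, since a relative past both thresholds would itself be 1 of the 50. A relative under the untreated floor could still have a high ratio. These families are named to show the gap.

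Other families moved together in part. Id1, the third inhibitor of DNA binding measured, was at 2.08 ± 0.15, so all 3 measured Id genes were higher. Spns2, a sphingosine-1-phosphate transporter, was at 2.48 ± 0.12, close to 2.64 for Spns3, while Spns1 was at 0.30 ± 0.35. Vamp8 was at 1.65 ± 0.16 and Slc2a5, the fructose transporter, at 1.85 ± 0.12. Oasl1 was at 1.25 ± 0.11 and Oasl2, dim in untreated RNA, at 2.90 ± 0.15, beside 2.74 for Oas1f, while Oas1a and Oas1c were neither. Serpina1c, also dim in untreated RNA, was at 2.13 ± 0.24, and Serpina3m was neither. Krt20 (2.40) and Krt15 (1.94) were higher while 12 other measured keratin genes were neither. Itgb6 (1.03) and Itga3 (1.00) were higher and 9 other measured Itg genes neither. The Ces1 family was divided, with Ces1c and Ces1b higher and Ces1f and Ces1e lower at -3.65 ± 0.39 and -1.50 ± 0.44. Ces1d and Ces1g, the second dim in RankL RNA, did not meet the rule. Probes of such close esterase copies can share signal. Ptpro, a receptor phosphatase, was lower at -1.84 ± 0.044, against 2.14 for Ptprr, and the other 9 measured Ptpr genes were neither.

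**Figure D3:**
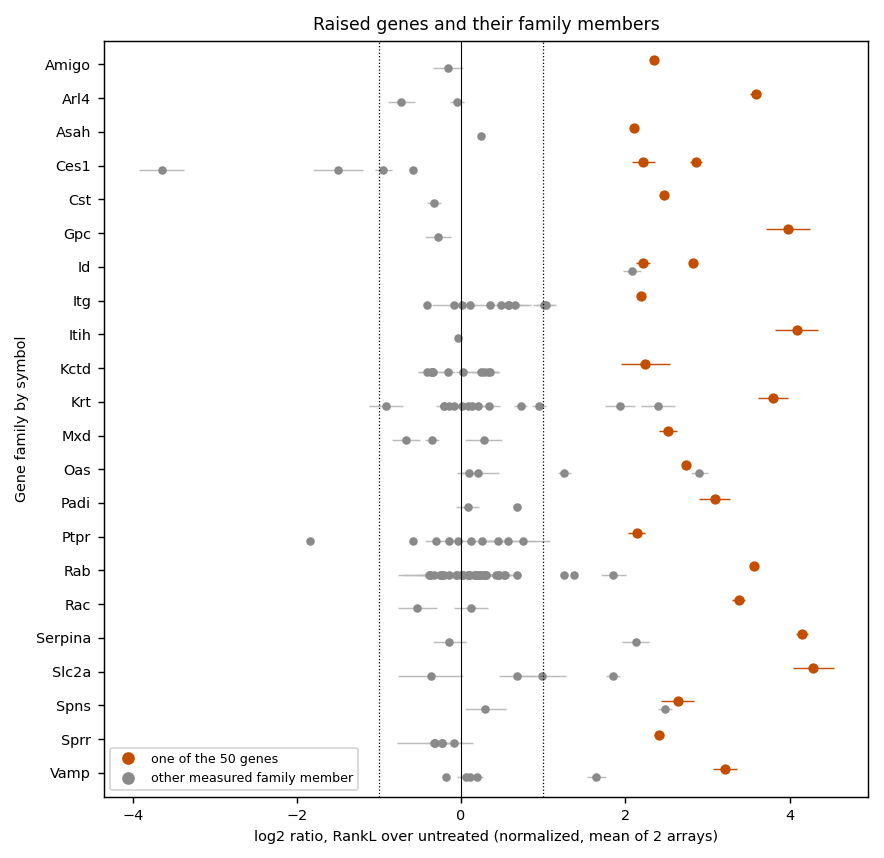
Normalized log2 ratio of RankL over untreated (x axis) for families with another measured member: orange, the 50 genes; grey, other measured members; points are means of 2 arrays, lines span the arrays, and dotted lines mark 2-fold. Rac2, Arl4c and Sprr1a stand apart from relatives near 0, as their choice makes likely, the Ces1 family lies on both sides of 0, and Oasl2 and Rab42, dim in untreated RNA, are drawn as measured.

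Promoter sequence was no criterion in the choice of genes, but the names left out, among them NF-kB genes and chemokines, bear on the NF-kB share. RefSeq promoter windows of assembly GRCm38.p6, from 250 bases before to 50 after the start, were found for 39 of the 50 genes, in 48 windows. They were searched on both strands for the NF-kB consensus, for AGGAAGT, a core bound by Spi-type Ets factors, and for TGANTCA, the AP-1 core. A gene counted if any of its windows held a match. Matches are shown for 5 genes, chosen because they hold each kind of match and, in Ccdc88b, NF-kB and Ets matches side by side. Capitals mark the matched bases and positions count from the start site, with no 0.

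The Ltb window (chr17:35194257-35194556, + strand) holds an NF-kB match at -87. The Ccdc88b window (chr19:6858162-6858461, - strand) holds NF-kB matches at -14 and 1 and an Ets match at 5, which overlaps the second of them. Rab32 (chr10:10558158-10558457, - strand) holds an Ets match at -42. Plb1 has a window with an AP-1 match at -200 (chr5:32238834-32239133, + strand) and another with an Ets match at -237 (chr5:32353330-32353629, + strand). Sprr1a (chr3:92485832-92486131, - strand) holds AP-1 matches at -146 and -116.
Ltb: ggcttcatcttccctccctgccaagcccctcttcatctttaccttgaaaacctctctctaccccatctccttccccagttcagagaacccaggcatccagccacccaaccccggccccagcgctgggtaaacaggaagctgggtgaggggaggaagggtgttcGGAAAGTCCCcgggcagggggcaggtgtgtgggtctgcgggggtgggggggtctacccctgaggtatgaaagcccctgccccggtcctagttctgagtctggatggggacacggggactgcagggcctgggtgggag
Ccdc88b: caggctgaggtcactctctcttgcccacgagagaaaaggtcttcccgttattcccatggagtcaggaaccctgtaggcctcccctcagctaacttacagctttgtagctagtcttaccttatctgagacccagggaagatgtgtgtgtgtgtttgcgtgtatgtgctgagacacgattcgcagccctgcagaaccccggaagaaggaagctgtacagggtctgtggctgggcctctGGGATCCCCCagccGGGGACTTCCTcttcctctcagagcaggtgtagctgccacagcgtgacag
Rab32: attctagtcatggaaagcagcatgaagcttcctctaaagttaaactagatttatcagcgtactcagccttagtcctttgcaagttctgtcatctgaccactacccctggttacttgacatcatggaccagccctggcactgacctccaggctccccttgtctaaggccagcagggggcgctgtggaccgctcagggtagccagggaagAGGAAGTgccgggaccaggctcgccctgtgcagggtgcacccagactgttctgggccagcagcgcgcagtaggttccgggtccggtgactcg
Plb1, AP-1 window: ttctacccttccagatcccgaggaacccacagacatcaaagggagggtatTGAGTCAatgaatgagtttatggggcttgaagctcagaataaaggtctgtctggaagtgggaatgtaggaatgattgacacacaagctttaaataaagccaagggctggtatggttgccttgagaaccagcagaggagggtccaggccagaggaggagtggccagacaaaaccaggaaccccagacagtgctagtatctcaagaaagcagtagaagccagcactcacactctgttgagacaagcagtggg
Plb1, Ets window: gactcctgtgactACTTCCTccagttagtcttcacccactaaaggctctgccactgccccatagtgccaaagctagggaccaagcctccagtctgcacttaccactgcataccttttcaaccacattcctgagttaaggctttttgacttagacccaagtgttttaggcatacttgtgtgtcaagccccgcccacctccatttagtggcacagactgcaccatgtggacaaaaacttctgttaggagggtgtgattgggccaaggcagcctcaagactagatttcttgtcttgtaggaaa
Sprr1a: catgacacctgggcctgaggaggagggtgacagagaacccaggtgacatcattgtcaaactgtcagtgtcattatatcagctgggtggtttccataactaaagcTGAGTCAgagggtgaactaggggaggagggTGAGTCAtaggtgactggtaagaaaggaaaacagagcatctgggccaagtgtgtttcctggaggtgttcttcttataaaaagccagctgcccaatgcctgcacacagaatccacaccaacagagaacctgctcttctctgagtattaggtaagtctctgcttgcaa

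The Ltb match, on the minus strand, is the only 1 among the 39 genes with a stricter form of the NF-kB consensus. NF-kB matches were found in 4 of 39 genes (10.3%; 95% exact binomial interval 2.87 to 24.2): Ltb, Ccdc88b, Padi2 and Ptprr. The share was 34.6% (9 of 26) among genes left out by name, which include NF-kB genes and chemokines. It was 9.80% among 51 genes raised to at least 250 from under 50 net, 12.1% among 7338 genes at 50 or more untreated and 9.55% among all 27025 genes of the table. All genes that met the thresholds, a set added after these shares were seen, only join the 39 and the 26 genes. In it 13 of 65 held a match (20%, interval 11.1 to 31.8). The share of the 50 lay near those of genes at 50 or more untreated and of all genes. It depends on which names were left out.

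Ets matches were found in 9 of 39 genes (23.1%; 11.1 to 39.3), against 10.3% of genes at 50 or more untreated and 10.7% of all genes. They were Ccdc88b, Il11ra1, Il4i1, Itgav, Nostrin, Oas1f, Plb1, Ptprr and Rab32. Among genes raised from under 50 net the share was 23.5% (12 of 51), and among those left out by name 11.5% (3 of 26). Most of these genes held the core on the minus strand. With the given strand alone 3 of the 39 genes (7.69%) had one. AP-1 matches were found in 6 of 39 genes (15.4%; 5.86 to 30.5), Asah2, Mylk, Plb1, Serpina1d, Sprr1a and Uba7, against 6.21% of genes at 50 or more untreated and 8.97% of all. The intervals cover counting error only, and no test of the difference was made.

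The windows also differed in base composition from those of other expressed genes. The median number of CpG dinucleotides per window was 9.25 for the 39 genes, against 21 for genes at 50 or more untreated and 7 for all genes. It was 4 for the genes left out by name and 9 for those raised from under 50 net. A match in a window says nothing of binding, and 23 of the 39 genes held none of the 3 motifs.

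**Figure D4:**
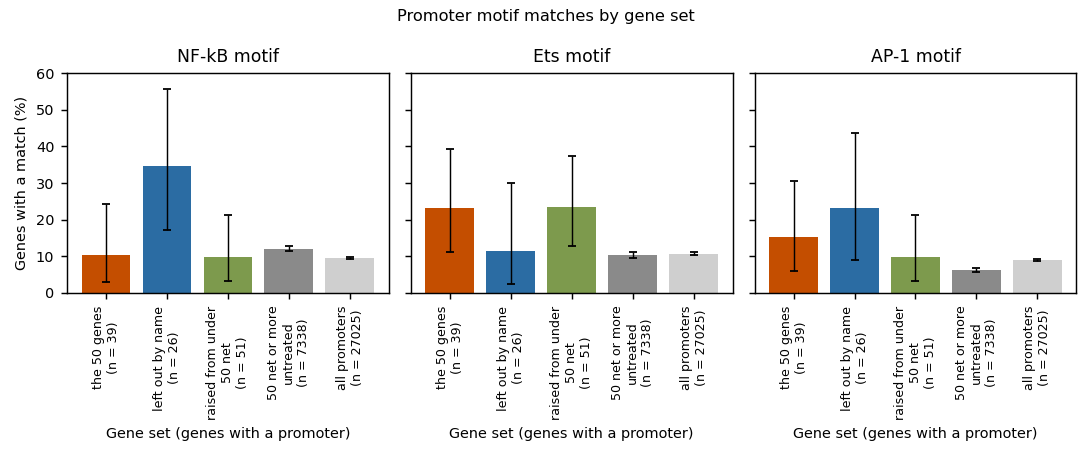
Percent of genes with at least 1 motif match in a promoter window (y axis, from 0), by gene set, with 95% exact binomial intervals and the number of genes with a window. The 50 genes (orange) stand at 10.3% for NF-kB, 23.1% for Ets and 15.4% for AP-1, against 12.1%, 10.3% and 6.21% of genes at 50 or more untreated (dark grey).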

How the data were processed

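Total RNA was labelled with Cy3 or Cy5 and hybridised to 2 Agilent arrays of mouse transcripts, per the labels. The deposited scanner files hold spot intensity values, as median brightness of spot and local background, unnormalized, with log10 ratios of processed signals and flags of other kinds (0 or 1), per the file headers. The headers name Agilent Feature Extraction 10.5.1.1, and the submitters' processing notes version 8.5.1.1. The authors' value table holds those log10 ratios, turned to RankL over untreated (largest difference 5.0e-06).

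Arrays were taken as 1 replicate, the second being labelled the dye swap of the first, on 1 slide. Net signals chose the genes. Ratios came from limma 3.58.1 (R 4.3.3), with normexp (offset 50), loess with control spots at weight 0, and outlier spots left out. The ratio step was tested on simulated data. A gene took the brightest probe that met the thresholds, and other genes their brightest measured probe, that is, on both arrays well above background in at least 1 RNA. Names came from RefSeq accessions (26918 of 41174 probes). The members, gene lists and families were chosen with earlier results of these data known. Every one of the 50 genes may be named. Net signals are given for the 15 highest ratios, the 10 brightest untreated and genes whose probes disagree. Precision is limited by the 1 RNA pair. Alternatives covered thresholds, background, normalization, arrays, probe choice and motif search. No value column was left unused (0).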

Additional observations from a re-analysis of the deposited data

How the results depend on the processing

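The number of genes depends on the thresholds. It was 29 with an untreated floor of 100, 85 with a floor of 25, 87 with a ratio of at least 4, 33 with a ratio of at least 6, 133 with the software's processed signals and 84 on array 2 alone, against 50 as reported. Array 1 alone gave 65. Requiring the ratio of every probe of a gene at 50 or more untreated on both arrays gave 49. Dimmer probes, such as the second ones of Aspg, Flt3l and Mxd1, were not required to pass there. The median log2 ratio was 2.69, and became 2.85 with an offset of 16, 2.90 from plain net signals, 2.57 with median centring, 3.18 from the software's ratios or the authors' value table, and 2.54 as the mean over measured probes. These settings were run on all 50 genes, each of which kept a log2 ratio of at least 1 and its sign throughout. Because the same spots chose the genes, this largely follows from the choice and is no separate evidence. It does not hold for every probe read singly, as given above for Mxd1 and Flt3l. With the stricter form the NF-kB share was 2.56% (1 gene), against 0.49% of genes at 50 or more untreated, and on the given strand alone the Ets share was 7.69%, against 5.34%. Searching GAGGAAG in place of AGGAAGT gave 33.3% for the 39 genes, against 15.3% of genes at 50 or more untreated. The cause of these moves was not tested. Low signal is a limit: 21 of the 50 genes had an untreated signal under 100 on at least 1 array. No paired analysis was possible because there is 1 RNA pair.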

Other observations

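Of 94 probes that met the thresholds, 6 had no gene name by RefSeq accession. Their log2 ratios ran from 1.95 to 3.85, and the brightest had net signals of 8785.5 and 9695 with RankL, against 659 and 693 untreated.

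Next to the 50 genes on the chromosome, by gene order in assembly GRCm38.p6, 62 neighbours were measured and 8 of them (12.9%) were higher by the size rule, against 5.90% of neighbours of all measured genes. The pair Ces1b and Ces1c counts in both directions, and since both are among the 50, their part in the 8 follows from the choice of genes. Vamp5 lies beside Vamp8 (1.65) and Spns3 beside Spns2 (2.48). Among the 62, 1 neighbour was lower. No test was made of these shares, which come from the same contrast.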
